A study of Canis lupus familiaris with 4 samples.

Results

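MDCKII cells, an epithelial line from canine kidney, held 189 short runs of neighbouring ATAC-seq peaks that were all much weaker 2 h after reseeding than in mature monolayers, while the 2 mature libraries gave similar levels there. These runs comprised 713 peaks, or 1.24% of the 57672 peaks on the 38 numbered chromosomes (the whole table holds 59081). Positions are in CanFam3.1, counted from 1. The members were chosen by their counts. CPM (counts divided by a library's total in peaks, times 1000000) were averaged over the libraries of each group, and 0.5 CPM was added to both means. A run was 3 or more consecutive peaks, with neighbouring midpoints at most 10 kb apart, in which every reseeded to mature ratio was at most 0.5. A run was kept where the median log2 ratio of mature library B to mature library A lay between -0.3 and 0.3. Because these values picked the members, the losses below are a description and carry no test.

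The reseeded group comprised 2 libraries (A and B) of MDCKII cells that were grown for 7 d, detached and left for 2 h after reseeding. The mature group comprised 2 libraries (A and B) of monolayers grown for 7 d to full maturity. All 4 libraries are labelled wild type, and no other treatment is given. Whether A and B were separate cultures is not stated in the labels, so the spread between them, and any p-value, may be technical. Sample names begin with 193 in the reseeded and 133 in the mature group, and a batch that follows this number cannot be told apart from reseeding. Total counts in peaks were 16906566 and 24015663 in reseeded A and B and 8759513 and 6253706 in mature A and B. A count of 3 equals 0.177 and 0.125 CPM in reseeded A and B and 0.342 and 0.48 CPM in mature A and B, for counting error only, since PCR copies may be among the counts. The labelled epithelial identity could not be checked against marker genes, because peaks were not placed on genes here.

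ATAC-seq marks DNA that the transposase Tn5 can reach, which is mostly DNA with few nucleosomes at promoters, enhancers and other regulatory sites. Regulatory sites of a gene often lie close together, and clusters of accessible sites are common around genes that are strongly used by a cell type. Mature MDCKII monolayers are polarised and joined by tight junctions. Detachment breaks these contacts, and cells rebuild them after they are seeded again.

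At the members as a whole, accessibility was much lower after reseeding, to different degrees at different sites. The median member had 5.26 and 5.29 CPM in reseeded A and B, against 22.1 and 21.6 CPM in mature A and B. Member peaks ranged from 0.177 to 52.3 CPM in reseeded A and from 0.167 to 53.1 CPM in reseeded B, and from 5.37 to 131.9 CPM in mature A and from 8.16 to 124.6 CPM in mature B. The median log2 ratio, reseeded over mature with 0.5 CPM added, was -1.83 over the 713 members and 0.04 over all numbered peaks. Members held 0.558% and 0.567% of all counts in reseeded A and B, against 2.05% and 2.03% in mature A and B. In these bulk libraries, fewer cells with an open site and less opening per cell cannot be told apart. The median member was a strong site in mature cells, above 75.3% of numbered peaks, and a weak site after reseeding, above 8.66% of them.

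**Figure D1:**
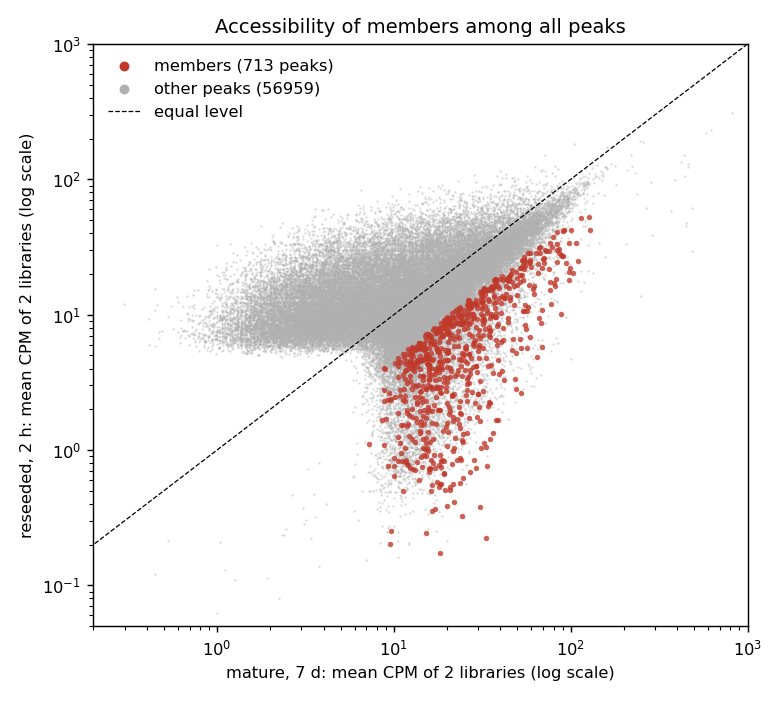
Mean CPM of each numbered peak in reseeded (vertical axis) and mature cells (horizontal axis), both on log scales, with the 713 members in red, the other numbered peaks in grey and equal level as a dashed line. Members lie below the line by the rule that chose them, and their mature means run from 7.24 to 128.2 CPM.

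Every member passed the low-count filter of the fit across all peaks. At a Benjamini-Hochberg adjusted p below 0.05 in edgeR, 713 of 713 members were called lower, where 41.8% of all tested peaks were. Both reseeded libraries lay below both mature libraries at 713 members, as they did at 44% of numbered peaks. The ratio was at most 0.5 in each of the 4 pairings of a reseeded with a mature library at 641 members, against 11.5% of numbered peaks. The rule used this contrast, so nothing is read from these counts. Fitted log2 folds, reseeded over mature, ranged from -7.22 to -1.06 with a median of -1.97 over members, and their standard errors (SE) from 0.06 to 0.45.

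Most losses were partial, and a minority of the sites fell under 1 CPM. Counts of peaks by fold, here and below, used the ratio with 0.5 CPM added. Among members, 321 were at least 4-fold lower (45.0%, against 5.11% of numbered peaks), 139 at least 8-fold lower (19.5%, against 1.83%) and 39 at least 16-fold lower (5.47%, against 0.149%). An excess over numbered peaks is built in, since every member had a ratio of at most 0.5 by the rule. Among the 6711 peaks that met this bound but lay in no run of 3, the shares were 34.5%, 10.4% and 0.566%. After reseeding 70 members (9.82%) had under 1 CPM, and 1 member was at or under 3 counts in reseeded A and 0 in reseeded B. At the other end, 184 members (25.8%) still had at least 10 CPM after reseeding. In mature cells 697 members had at least 10 CPM. Peaks just inside the bound of 0.5 were on chromosome 8 from 48481096 to 48481596 (11 CPM reseeded, 22.6 CPM mature) and on chromosome 9 from 23742080 to 23742580 (28.5 CPM reseeded, 57.7 CPM mature). Just outside it, next to member runs, lay peaks on chromosome 17 from 37294436 to 37294936 (9.58 CPM reseeded, 19.7 CPM mature; ratio 0.5001) and on chromosome 7 from 896377 to 896877 (13.0 CPM reseeded, 26.3 CPM mature; ratio 0.5035).

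Member runs were short. Of the 189 runs, 123 held 3 peaks, 34 held 4, 13 held 5 and 19 held 6 to 12, and these 19 held 143 members. Spans ran from 1.61 to 24.4 kb with a median of 6.39 kb. The mean level per peak of a run was 0.754 to 33 CPM after reseeding (median 7.27) and 10.5 to 94.6 CPM in mature cells (median 25.9). Summed over its peaks, a run kept 2.77% to 46.8% of its mature level, with a median of 28.9%. The run median of the log2 ratio was below -4 in 5 runs, between -4 and -3 in 15, between -3 and -2 in 53, between -2 and -1.5 in 50 and between -1.5 and -1 in 66. In these bands the median reseeded level per peak was 1.7, 2.7, 4.72, 7.9 and 10.8 CPM, while the median mature level was 25.0, 25.8, 22.5, 28.7 and 28.6 CPM. The bands were cut on the ratio itself, so these levels are a description. Across the 189 runs, which share the same libraries, the median log2 ratio had a Spearman rho of 0.165 with mature level and of -0.299 with the number of peaks (Pearson's r 0.141 and -0.435). Over all numbered peaks, mature log2 CPM and the log2 ratio had a Spearman rho of -0.683. Mature level is the denominator of the ratio, and the rule bounds the ratio of members. The values with mature level are therefore partly built in, and nothing is read from their difference.

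The deepest run lay on chromosome 1 from 110084747 to 110089178, where 7 consecutive peaks were all lowered by a similar amount. Its mean per peak was 0.811 and 0.696 CPM in reseeded A and B (0.754 ± 0.0815, mean ± SD, n = 2), against 27.9 and 26.4 CPM in mature A and B (27.2 ± 1.1, n = 2). It therefore kept 2.77% of its mature level. With 0.5 CPM added, it was the only member run in which every peak was at least 16-fold lower. Its highest log2 ratio, -4.18, was at 110084747 to 110085247, with 0.769 and 0.291 CPM in reseeded A and B, against 20.5 and 15.7 CPM in mature A and B. Its lowest, -4.74, was at 110086584 to 110087084, with 0.828 and 0.708 CPM reseeded, against 35.3 and 31.5 CPM mature, a fitted log2 fold of -5.50 (SE 0.17). The 7 peaks, each 501 bp wide, lay within 4.43 kb.

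Chromosome 30 from 6772909 to 6787966 held the run with the most peaks, 12 over 15.1 kb. Mean levels per peak were 1.21 CPM in both reseeded libraries, against 20.4 and 18.2 CPM in mature A and B, so that 6.27% of the mature level was left. The 12 peaks were all lowered, the least of them 6.87-fold by mean CPM. The peak at 6779760 to 6780260 was that least lowered one and the strongest of the run in both groups, with 3.49 and 4.66 CPM reseeded, against 31.1 and 24.9 CPM mature (log2 fold -2.81, SE 0.14). Its left neighbour at 6779140 to 6779640 had the lowest log2 ratio, with 0.769 and 0.25 CPM reseeded, against 22.9 and 18.5 CPM mature (log2 fold -5.51, SE 0.27). Here the mature libraries were nearest to the lower agreement bound among the 6 runs with the most peaks, with a median log2 ratio of B to A of -0.26.

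Near the start of chromosome 15, a run of 5 peaks from 483179 to 486687 and a run of 8 from 487818 to 494378 were separated by a single peak that was also lower but stayed accessible. The run of 8 peaks had means of 1.15 and 1.19 CPM per peak reseeded, against 19.0 and 20.3 CPM mature, and kept 5.97% of its mature level. The run of 5 had means of 1.61 and 1.66 CPM reseeded, against 17.9 and 19.3 CPM mature. The peak between them, from 487035 to 487535, had 33.1 and 29.9 CPM reseeded, against 60.5 and 61.2 CPM mature, a log2 ratio of -0.94 that was above the bound. That peak was the strongest of the stretch in both groups. This pair of runs was singled out after its values were seen.

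A further set of deep runs lay on chromosomes 6 and 7. On chromosome 6 from 6490649 to 6492510, 3 peaks had means of 1.18 and 1.43 CPM reseeded, against 26.4 and 25.2 CPM mature, and kept 5.06%. On chromosome 7 from 10796739 to 10804596, 6 peaks had means of 1.31 and 1.47 CPM reseeded, against 25.9 and 24.0 CPM mature, and kept 5.57%. Both runs were low at every peak, with the least lowered at log2 ratios of -3.43 and -3.26. Chromosome 7 from 954751 to 963516 differed from them: 8 of its 9 peaks had log2 ratios of -4.31 to -3.58, whereas the last, at 963016 to 963516, had 9.17 and 8.33 CPM reseeded, against 22.1 and 22.7 CPM mature (log2 ratio -1.31). The strongest peak of that run, at 957128 to 957628, had 3.02 and 2.66 CPM reseeded, against 49.9 and 48 CPM mature.

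**Figure D2:**
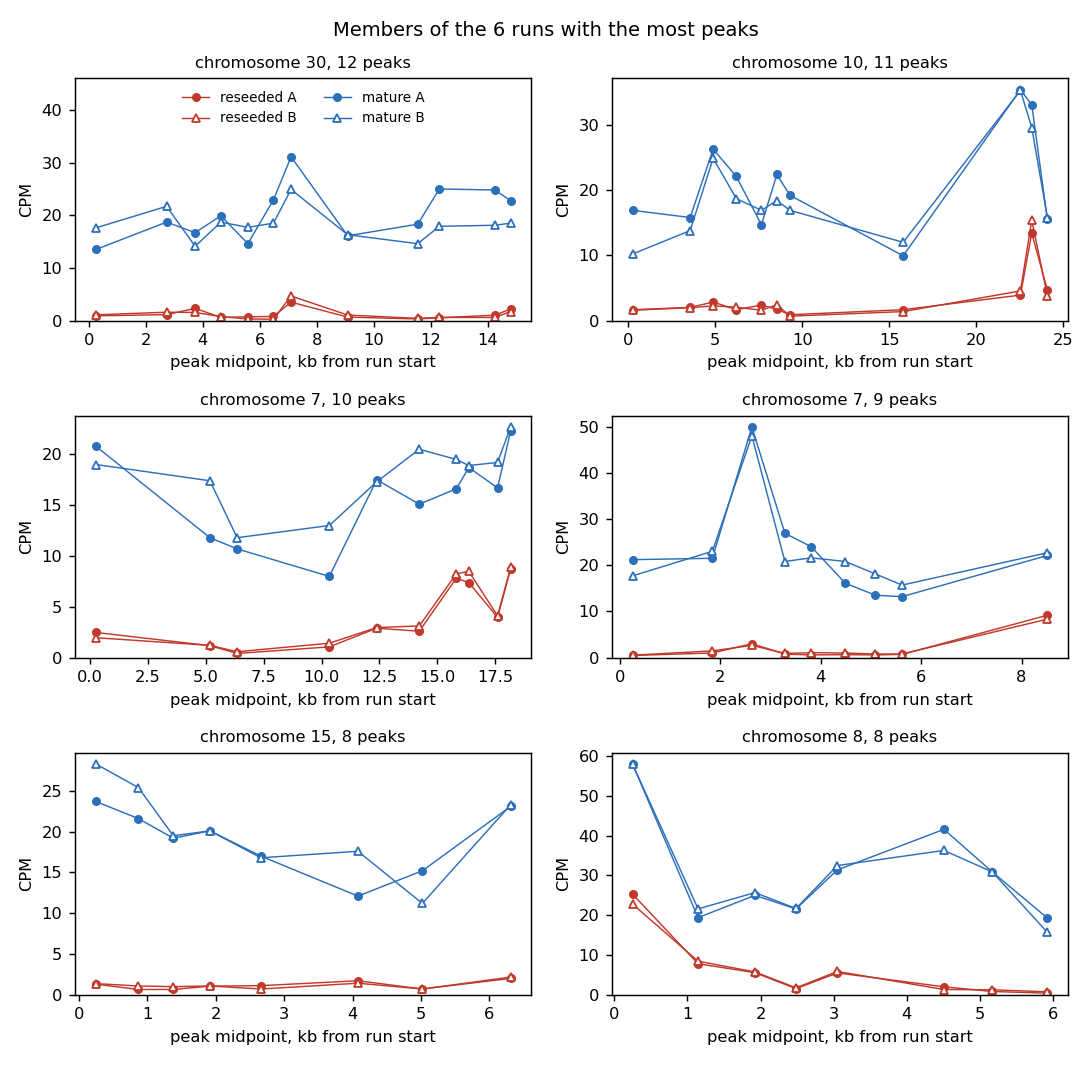
CPM of each member (vertical axis) against the distance of its midpoint from the start of its run in kb (horizontal axis) in the 6 runs with the most peaks, with reseeded libraries in red, mature libraries in blue, library A as filled circles and library B as open triangles. The reseeded libraries lie below the mature ones at every member. Their means per peak are 1.21 CPM in both libraries in the chromosome 30 run and 1.15 and 1.19 CPM in the chromosome 15 run. Reseeded levels reach 25.3 CPM at the first peak of the chromosome 8 run.

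Several of the larger runs were uneven along their length. In the run of 8 peaks on chromosome 8 from 48330266 to 48336436, the first peak had 25.3 and 22.8 CPM reseeded, against 58.0 and 58.0 CPM mature (log2 fold -1.32, SE 0.08). The seventh, at 48335183 to 48335683, had 0.828 and 1.25 CPM reseeded, against 30.9 and 30.9 CPM mature (log2 fold -4.88, SE 0.17). Mature levels in this run did not follow the same order, since the sixth peak had 41.6 and 36.3 CPM. The run of 11 peaks on chromosome 10 from 30656003 to 30680338 was low over its first 9 peaks, with reseeded levels of 0.666 to 4.54 CPM. The next peak, at 30678940 to 30679440, kept 13.4 and 15.4 CPM reseeded, against 33.1 and 29.6 CPM mature. The run of 10 peaks on chromosome 7 from 1407334 to 1425756 had its most lowered peak at 1413440 to 1413940, with 0.414 and 0.583 CPM reseeded, against 10.7 and 11.8 CPM mature. Its peak at 1422907 to 1423407 was the least lowered, with 7.81 and 8.24 CPM reseeded, against 16.6 and 19.5 CPM mature.

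The most lowered members lay on chromosomes 27, 2 and 1. Of the 5 lowest log2 ratios among members with a mean mature count of at least 50, 3 were neighbours in the run of 7 peaks on chromosome 27 from 2946587 to 2955955. The peak at 2947116 to 2947616 had 4 and 5 counts (0.237 and 0.208 CPM) in reseeded A and B, against 286 and 211 counts (32.7 and 33.7 CPM) in mature A and B. From pooled counts it was 150.5-fold lower (exact Clopper-Pearson interval at 95%, 78.7 to 331.1, counting error only). Its neighbours at 2946587 to 2947087 and 2947988 to 2948488 were 83.2-fold (49.9 to 149.9) and 104.0-fold (49.8 to 261.1) lower. Another of the 5, on chromosome 2 from 59601815 to 59602315, had 0.355 and 0.291 CPM reseeded, against 24.0 and 24.5 CPM mature, and was 76.1-fold lower (43.9 to 144.3). The last of them was the chromosome 1 peak described above. In the chromosome 27 run the losses did not extend evenly: its last peak, at 2955455 to 2955955, had 16.6 and 15.4 CPM reseeded, against 33.6 and 36.9 CPM mature. With a range of 4.43 in log2 ratio it was the most uneven member run.

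The chromosome 2 run that holds one of these peaks, from 59601815 to 59607456, was uneven in a different way. Its outer peaks were lowered most, the right-hand one with 1.3 and 1.37 CPM reseeded, against 41.1 and 31.3 CPM mature. The peak between them, at 59603904 to 59604404, kept 10.4 and 10.2 CPM reseeded, against 33.8 and 33.1 CPM mature.

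Of the 3 member runs with the highest mature level per peak, 2 lay on chromosome 9. Chromosome 9 from 37457178 to 37460335 had means of 32.2 and 33.8 CPM per peak reseeded (33 ± 1.11, mean ± SD, n = 2), against 98.0 and 91.3 CPM mature (94.6 ± 4.79, n = 2). Its peak at 37459835 to 37460335 was the strongest of all members in mature cells, with 40.0 and 44.2 CPM reseeded, against 131.9 and 124.6 CPM mature (log2 fold -1.64, SE 0.07). Chromosome 2 from 82435118 to 82436933 had means of 27.7 and 27.1 CPM reseeded, against 69.1 and 65.8 CPM mature, and kept 40.6%. Chromosome 9 from 37529254 to 37533304 had means of 14.3 and 13.7 CPM over 5 peaks reseeded, against 66.1 and 67.1 CPM mature, and kept 21.0%. In that last run the strong peaks at 37531572 and 37532804 alternated with weaker ones. The strong peaks kept 21.1 and 19.7 CPM and 22.5 and 21.5 CPM in reseeded A and B, against 102.9 and 102.7 CPM and 100.8 and 97.1 CPM in mature A and B.

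Both chromosome 9 runs belonged to a group of 4 member runs between 37457178 and 37559918, within 102.7 kb. That stretch held 50 peaks, of which 16 were members, a further 16 had ratios of at most 0.5 outside any member run, and 4 had ratios above 1. Of those 16, 8 and 3 belonged to lost runs with disagreeing mature libraries, from 37470426 to 37481462 and from 37500365 to 37503091. Levels in its other runs were 11.7 and 10.8 CPM reseeded, against 41.9 and 42.5 CPM mature (37489875 to 37492032), and 11.5 and 12.4 CPM reseeded, against 49.0 and 48.6 CPM mature (37551414 to 37559918). A similar group of 4 runs on chromosome 27, from 2807084 to 2955955, held 17 members among 35 peaks. The first 5 Mb of chromosome 27 held 6 of that chromosome's 7 member runs, 27 members in all. Runs with another member run within 100 kb numbered 44, in 19 groups with 174 members. The other 145 runs stood alone at that distance, and 10 member runs lay within 100 kb of a lost run in which the mature libraries disagreed. Both groups of 4 were singled out after their values were seen.

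The longest member runs were the one on chromosome 9 from 48981878 to 49006303 (24.4 kb, 4 peaks) and those on chromosome 10 and chromosome 7 described above (24.3 kb and 18.4 kb). The chromosome 9 run had widely spaced peaks, with means of 3.50 and 3.04 CPM reseeded, against 23.9 and 22.9 CPM mature. Its strongest peak, at 48991248 to 48991748, had 6.15 and 4.75 CPM reseeded, against 51.5 and 41.9 CPM mature (log2 fold -3.19, SE 0.12).

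Losses were uneven within many runs. The highest and lowest log2 ratio of a run differed by a median of 1.23, by under 1 in 77 runs and by over 2 in 37. Every peak was at least 4-fold lower in 14 runs (64 members) and at least 8-fold lower in 3, while 44 runs had no peak that was 4-fold lower. The strongest mature peak of a run was its most lowered peak in 42 runs and its least lowered in 59. The median log2 ratio was -1.64 at these strongest peaks and -1.90 at the other members. With only 3 peaks in 123 of the 189 runs, such matches are common whichever peak is taken. Nothing is therefore read from the counts of 42 and 59. The same peak was strongest in both groups in 128 runs (67.7%), in both reseeded libraries in 173 and in both mature libraries in 172. Across the 713 members, Spearman's rho of mature log2 CPM was 0.666 with reseeded log2 CPM and 0.101 with the log2 ratio (Pearson's r 0.654 and 0.106), a description over peaks that share libraries and neighbours. The bound on the ratio of members shapes both values.

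Position within the run made little difference. Inner peaks (335) had medians of 5.23 CPM reseeded and 23.6 CPM mature, and end peaks (378) had medians of 5.46 CPM reseeded and 20.6 CPM mature. Their median log2 ratios were -2.03 and -1.75, but taken run by run the inner peaks were lower than the ends in 100 of 189 runs, with a median difference of -0.05. In the 66 runs of 4 or more peaks, the least lowered peak was at an end in 32 runs and the most lowered in 25, where 38.4% of these runs' peaks were end peaks.

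The reseeded libraries were compared with each other at the members, a measure that the rule did not use. The log2 ratio of reseeded B to reseeded A had a median of 0.03 over members and 0.002 over all numbered peaks. It lay within 0.3 of 0 at 618 members (86.7%) and at 95.7% of numbered peaks. After reseeding, numbered peaks had a higher level than members, with medians of 13.0 and 5.34 CPM. Between 2.54 and 10.2 CPM, the middle range of the members after reseeding, the median absolute log2 ratio was 0.13 at 357 members and 0.11 at 14282 peaks that were not lost. Run medians lay within 0.3 of 0 in 188 of 189 runs. Spearman's rho between the libraries' run means was 0.992 for the reseeded pair and 0.979 for the mature pair (Pearson's r 0.994 and 0.981). The remaining signal at the members thus differed little between the reseeded libraries.

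The mature libraries were alike in each member run by its median, as the rule required, but not at each peak. The log2 ratio of mature B to mature A lay within the bounds at 607 members, above 0.3 at 68 and below -0.3 at 38. Nearest to the upper bound was a member run on chromosome 20 from 54211923 to 54216758 (0.28), then one on chromosome 18 from 25636822 to 25647706 (0.27). Nearest to the lower bound were chromosome 24 from 32756243 to 32767520 (-0.29) and chromosome 22 from 57816264 to 57824151 (-0.27). Just outside lay a run on chromosome 2 from 84135598 to 84140621 (0.32) and another on chromosome 8 from 72287455 to 72302617 (0.33). The only run outside the lower bound was on chromosome 15 from 1632575 to 1636897 (-0.35).

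Runs were also sought in the libraries of a single letter, a choice made after the data were seen. Runs found from reseeded A and mature A alone, with no agreement bound, held 1086 peaks, of which 661 were members (60.9% of those peaks and 92.7% of the members). In the B libraries, 1017 of the 1086 (93.6%) had a ratio of at most 0.5, with a median log2 ratio of -2.32 in B against -2.23 in A. By group means 13.5% of numbered peaks had such a ratio. Runs found from the B libraries alone held 1094 peaks, of which 641 were members (58.6% and 89.9%). Of these 1094, 1018 (93.1%) had a ratio of at most 0.5 in the A libraries, with a median log2 ratio of -2.20. The overlaps with the members are partly built in, because the means that chose the members include the same libraries. A and B may be technical copies of 1 culture and share the name code of their group. The shares in the other letter are therefore a description and carry no test.

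Member runs had smaller losses at the median than the lost runs in which the mature libraries disagreed. With 0.5 CPM added, however, a larger share of members was at least 16-fold lower. There were 65 such disagreeing runs with 360 peaks, mature B exceeding mature A in 64. Run medians of the log2 ratio had a median of -1.77 in the member runs, against -3.01 in the disagreeing runs. The median member had 5.34 CPM reseeded and 21.7 CPM mature, whereas the median peak of the disagreeing runs had 1.65 CPM reseeded and 17.8 CPM mature. Every peak was at least 4-fold lower in 14 of the 189 member runs (7.41%), against 39 of the 65 disagreeing runs (60.0%). By single peak, 45.0% of members were at least 4-fold lower, against 86.9% of the peaks of the disagreeing runs. At 8-fold these shares were 19.5% and 61.4%. At 16-fold the order was the other way, with 39 members (5.47%) against 9 peaks of the disagreeing runs (2.5%). The added 0.5 CPM reduces folds most where levels are low. Whether the order at 16-fold holds with another added value was not tested. Of those 39 members, 7 made up the deepest run on chromosome 1. The lowest run median of the log2 ratio was -4.43 in the member runs and -4.04 in the disagreeing runs, and the highest mature mean per peak was 94.6 CPM in the member runs and 476.4 CPM in the disagreeing runs. Member runs held up to 12 peaks, against up to 28 in the disagreeing runs. Between the reseeded libraries the sets were closer: run medians of B to A were -0.25 to 0.38 in the member runs and -0.21 to 0.50 in the disagreeing runs. These differences were not tested, since the mean of the mature libraries enters the ratio and their quotient divides the sets.

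**Figure D3:**
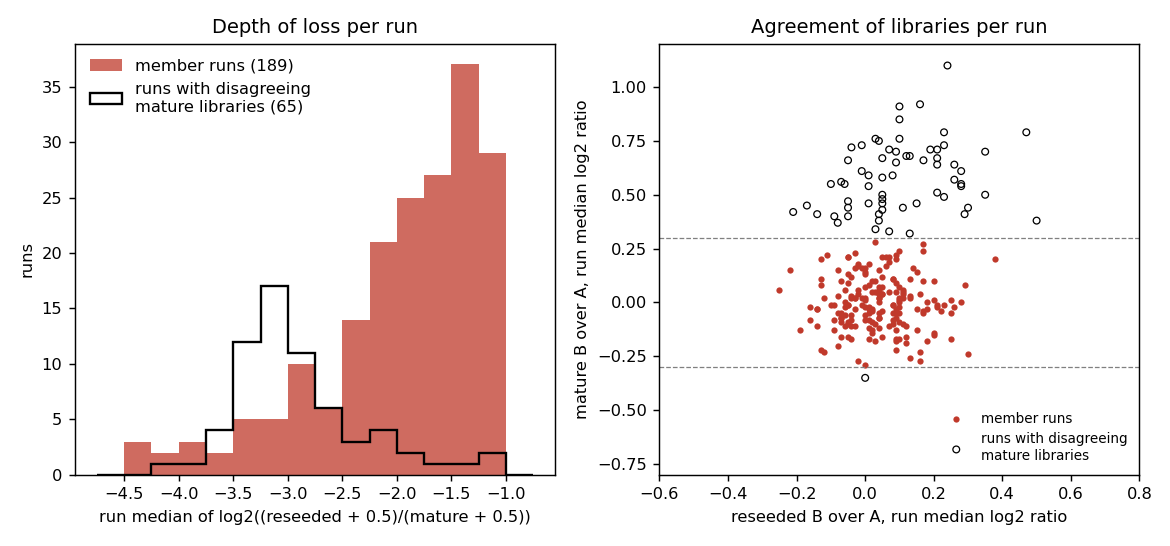
Left, number of runs (vertical axis) by run median of the log2 ratio of reseeded to mature CPM with 0.5 CPM added (horizontal axis), for the 189 member runs (red) and the 65 runs with disagreeing mature libraries (black outline). Right, run medians of the log2 ratio of library B to A in reseeded (horizontal axis) and mature cells (vertical axis), with the bounds of -0.3 and 0.3 dashed; member runs spread around 0 on both axes.

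Distance between neighbours entered the rule, which favours short gaps, so the spacing is a description. The median distance between neighbouring midpoints in a run was 1392 bp over 524 pairs, against 2719 bp over all 29829 neighbouring pairs up to 10 kb apart. Of the member pairs 40.8% were at most 1 kb apart, against 22.2% of all such pairs. No peaks in the table overlapped, since the smallest distance between midpoints was 502 bp for peaks 501 bp wide. In 21 runs every distance was at most 1 kb, and there a single broad site cannot be told apart from several. When peaks within 1 kb were merged before runs were sought, 115 runs of 515 peaks remained, and 409 of these peaks were members. Neighbouring members differed by a median of 0.42 in log2 ratio up to 1 kb apart and of 0.61 from 5 to 10 kb, against 0.54 and 1.0 for all pairs. The bound on the ratio narrows the differences between members.

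The runs ended in different ways. Of 378 run sides, 144 had no further peak within 10 kb and 234 ended at a peak above the ratio bound. Those 234 next peaks had a median log2 ratio of -0.43 (quartiles -0.74 and 0.16), with medians of 15.9 CPM reseeded and 19.8 CPM mature. Thus 104 of them were below -0.5 and above the bound, 68 had ratios over 1 and 22 were at least 2-fold higher after reseeding. The 47 next peaks within 1 kb had a median log2 ratio of -0.73, and 5 of them had ratios over 1. In 8 of the 76 runs with a next peak on both sides, both were above 1.

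Beyond the runs, peaks also had lower ratios than elsewhere, by less at larger distances. Among peaks outside any lost run, the median log2 ratio was -0.50 within 10 kb of a member run (547 peaks), -0.47 from 10 to 20 kb, -0.33 from 20 to 50 kb, -0.31 from 50 to 100 kb and -0.18 from 100 to 500 kb. Over all 56599 peaks outside lost runs it was 0.07. Median reseeded levels were 15.3 CPM within 10 kb and 13.7 CPM from 100 to 500 kb, against 13.2 CPM over all 56599. Median mature levels were 21.1 and 14.3 CPM, against 12.1 CPM. The lower ratios around member runs thus went with higher mature levels, and reseeded levels there were not below those elsewhere. Ratios of at most 0.5 were found at 22.6% of the peaks from 10 to 20 kb away and 18.9% from 50 to 100 kb, against 11.9% of all peaks outside lost runs. Peaks at least 2-fold higher made up 7.31% within 10 kb and 14.3% from 50 to 100 kb, against 26.9%. In the nearest ring the rule limits the ratios, since a lost next peak would have joined the run. Around the disagreeing runs the medians were close to these, at -0.47 within 10 kb and -0.20 from 100 to 500 kb.

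**Figure D4:**
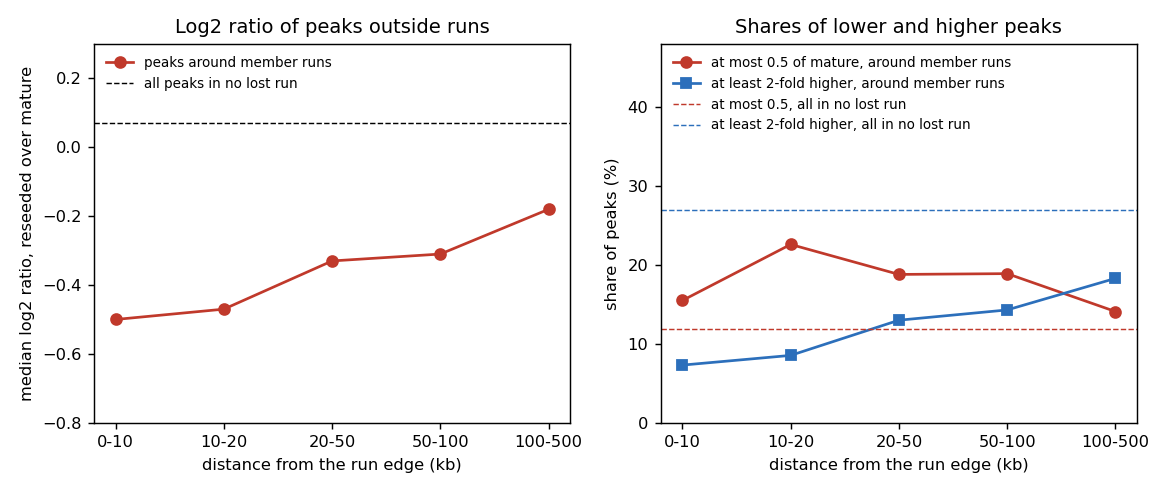
Peaks outside any lost run by distance from the edge of the nearest member run in kb (horizontal axes). Left, their median log2 ratio of reseeded to mature CPM, which goes from -0.50 to -0.18 with distance; right, the percentage with a ratio of at most 0.5 (red) and at least 2-fold higher (blue), with dashed lines for all 56599 peaks outside lost runs.

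Member runs sat in peak-rich surroundings. A member had a median of 58 other peaks 50 to 500 kb away (quartiles 40 and 75), against 39 for all numbered peaks (23 and 59) and 42 for lost peaks in no run of 3. Peaks of the disagreeing runs had a median of 42 (16 and 58). A rule that asks for 3 peaks close together favours dense regions, and how far that sets these numbers was not tested.

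The members were unevenly spread over 36 chromosomes. Chromosome 9 held 26 runs and 100 members, which were 14% of all members and 2.81% of the chromosome's peaks, where it had 6.17% of all numbered peaks. Chromosome 20 followed with 16 runs and 58 members (2.25% of its peaks), chromosome 17 with 14 runs and 47 members (1.79%) and chromosome 18 with 13 runs and 49 members (2.71%). On chromosome 27, 30 members made up 2.28% of the peaks. Chromosomes 29 and 33 held 0 member runs among 535 and 625 peaks, of which 50 and 59 were lost peaks in no run of 3. Chromosome 2, with 2957 peaks, held 4 runs, and chromosome 11, with 1459 peaks, held 2. Across the 38 chromosomes, which were measured in the same libraries, the share of members had a Pearson's r of 0.646 and a Spearman's rho of 0.573 with peaks per Mb. All 8 runs of chromosome 1 lay beyond 100 Mb, where 37.2% of that chromosome's peaks were found, a count made after the positions were seen.

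**Figure D5:**
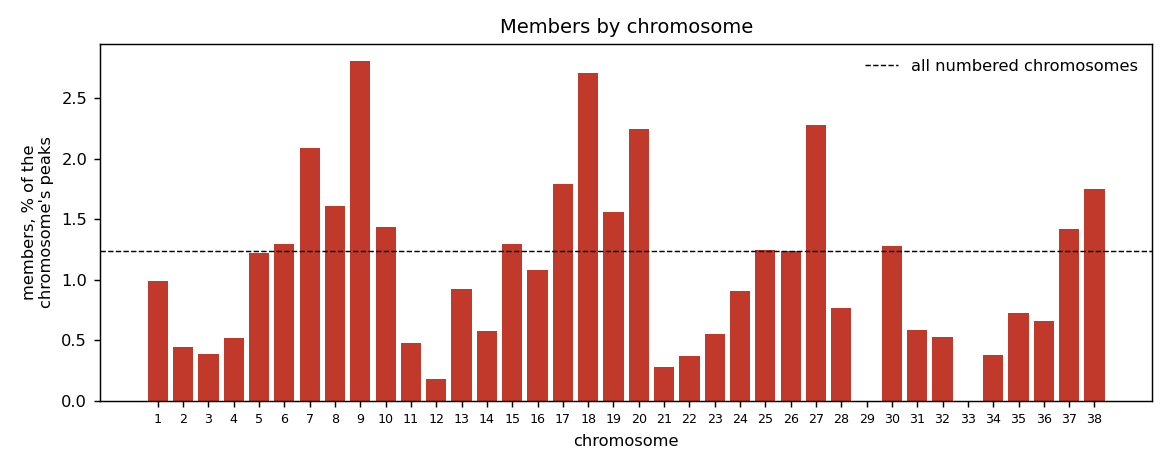
Members as a percentage of all peaks of each numbered chromosome (vertical axis, bars) by chromosome (horizontal axis), with the share over all 38 chromosomes, 1.24%, as a dashed line. Chromosomes 9 and 18 have the largest shares, and chromosomes 29 and 33 have none.

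Chromosome starts held more members than their share of peaks. The first 3 Mb of the numbered chromosomes held 107 members in 23 runs, 15% of members against 5.52% of peaks. These runs lay only on chromosomes 7, 9, 14, 15, 26, 27, 32 and 38. The start of chromosome 27 alone held 27 of the members. The last 3 Mb before the final peak of each chromosome held 54 members in 15 runs, 7.57% against 5.55%. For the disagreeing runs these shares were 16.1% and 23.1%. Dog numbered chromosomes have their centromere at one end, but which end lies at the start of each chromosome was not examined here.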

How the data were processed

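Accessibility was measured by ATAC-seq in 4 MDCKII libraries, 2 reseeded and 2 mature. The authors deposited raw counts for 59081 peaks of 501 bp, not normalized. The submitters' processing notes name Bowtie2, MACS2 and the build CanFam3.1. Versions, settings, duplicate handling and the choice of peaks for the table were not given in the sources used here. Duplicates and reads with several matches can change counts, most of all in repeated sequence. Chromosome accessions were read as chromosome numbers, and positions count from 1.

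Totals in peaks were 6253706 to 24015663 per library. Runs and ratios were computed with numpy 2.4.6, pandas 2.3.3 and scipy 1.17.1, on CPM by column totals. Counts over all peaks were tested with edgeR 4.0.16 in R 4.3.3 (filterByExpr, TMM scaling, quasi-likelihood test, Benjamini-Hochberg adjustment over all peaks, no block), tested first on simulated data. Each SE is the absolute log2 fold divided by the square root of its F statistic. Alternatives were DESeq2 1.42.0, other scalings, filters, thresholds, a replicate block by library letter, and each library left out. Named runs were the 6 with the most peaks, the 5 with the lowest summed ratio, the 3 with the highest mature level and the 3 longest, with ties going to the lower summed ratio. Others are marked as singled out later. The members, lists and rules were chosen with earlier results of these data known. Library letters did not show pairing. With no CanFam3.1 genome or annotation used here, genes, base composition and sequences are not reported.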

Additional observations from a re-analysis of the deposited data

How the results depend on the processing

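The numbers of members followed the bounds of the rule by construction: a ratio bound of 0.4 gave 338 peaks in 86 runs, one of 0.6 gave 1460 in 376, and at least 4 peaks per run gave 344 in 66. Merging peaks within 1 kb gave 115 runs, and runs sought in the A or B libraries alone, with no agreement bound, held 1086 and 1094 peaks. These last 3 settings were chosen after the data were seen. The median log2 ratio of members was -1.847 to -1.808 with a library left out. The replicate block by library letter called 713 members lower, as did every other alternative of that count. Since members were chosen for ratios of at most 0.5, this says nothing about stability. Merging overlapping peaks changed nothing, because no peaks overlapped. Between groups, the differences of library A from B had a correlation of 0.031 over all peaks, so the letters gave no sign of pairing. Members under 1 CPM after reseeding rest on few counts, which limits their folds. GC content and sequence were not examined, because no genome of the build was used.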
